A study of Callithrix jacchus with 6 samples.

Results

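Epithelial cells of the choroid plexus were examined in single-cell RNA counts from the hippocampus of common marmosets (Callithrix jacchus), which the series title calls aged. The cells were chosen by measured values. A cell barcode was kept when it had unique molecular identifiers (UMIs, single counted RNA molecules) of at least 2 of the choroid plexus genes KCNJ13, CLIC6, PRLR, KL and OTX2. Their summed UMIs had to reach 3 and 6 per 10000 UMIs of the barcode, and the barcode had to hold 0 UMIs of MOG, GAD2 and SLC17A7, markers of oligodendrocytes, GABAergic neurons and glutamatergic neurons. OTX2 was not matched to a gene identifier, so the rule ran on the other 4 markers. It kept 225 of 46582 barcodes, called rule cells here. The 6 libraries comprised 3 control libraries (oxygen, 6 h) and 3 libraries after sevoflurane, an inhaled anaesthetic, given for 6 h. The tissue of all 6 was digested with collagenase and the suspensions were frozen before library preparation. The labels do not say whether replicates came from separate animals or whether animals were pooled.

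The choroid plexus is a fold of secretory epithelium over leaky, fenestrated capillaries inside the brain ventricles. Its cells are joined by tight junctions, secrete most of the cerebrospinal fluid by moving sodium, chloride, bicarbonate and water, and release carrier proteins such as transthyretin. They develop from the roof plate of the neural tube beside the ependyma, the ciliated lining of the ventricles, and carry tufts of cilia themselves. The plexus of the lateral ventricle lies along the fimbria of the hippocampus.

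The libraries held 7103 to 8577 barcodes and 41164947 to 47886816 UMIs. Barcodes with neuron markers made up 38.1% to 57.8% of each library. Of 46320 different barcode sequences, 261 occurred in more than 1 library. This included the barcodes of 3 rule cells, of which 0 were rule cells in both libraries. Sevoflurane replicate 3 also stood apart by its 9 ependymal-like cells, where the other 5 libraries held 77 to 293.

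Rule cells were concentrated in 1 library. Sevoflurane replicate 1 held 211 of them, 2.46% of its barcodes (exact Clopper-Pearson 95% interval 2.14% to 2.81%). Control replicate 2 held 11 (0.153%, interval 0.0766% to 0.274%), sevoflurane replicate 2 held 2 (0.0273%, interval 0.00331% to 0.0985%) and control replicate 1 held 1 (0.0121%, interval 0.000307% to 0.0676%). Control replicate 3 and sevoflurane replicate 3 held 0, and by the limit of 3 counts that a count of 0 allows their shares could be up to 0.0367% and 0.0422%. Sevoflurane replicate 1 thus contributed 93.8% of the rule cells. Its share lay above the 2 other sevoflurane libraries as well as above the 3 control libraries, so the sevoflurane and control groups overlapped. No test between the groups was made, because 1 library per group carried nearly all of the group's cells. All intervals here cover counting error only.

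**Figure D1:**
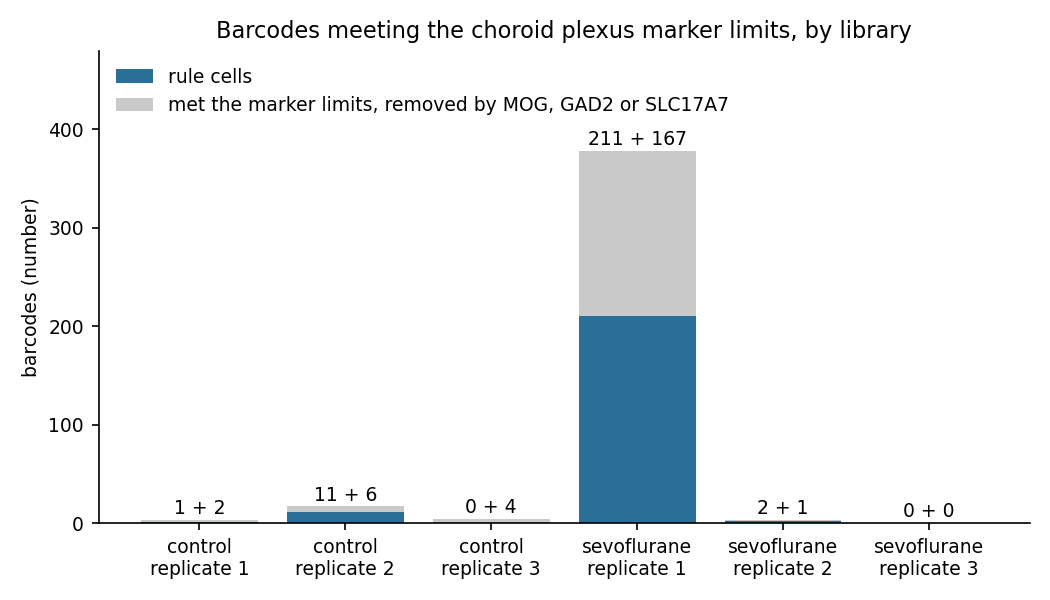
Number of barcodes (vertical axis) in each of the 6 libraries (horizontal axis) that met the limits on the choroid plexus markers. Blue is rule cells and grey is barcodes removed because they held a UMI of MOG, GAD2 or SLC17A7. Sevoflurane replicate 1 holds 211 rule cells and 167 removed barcodes, and the other libraries hold 0 to 11 and 0 to 6.

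The selecting genes showed which part of the signature each cell carried. In the 211 rule cells of sevoflurane replicate 1, CLIC6, an intracellular chloride channel protein, was found in 98.6% of cells at 1628 CPM (UMIs of a gene per 1000000 UMIs of the summed cells). PRLR, the prolactin receptor, was found in 75.4% of cells at 436 CPM. KL, the anti-ageing protein klotho, was found in 42.2% at 187 CPM, and KCNJ13, the potassium channel Kir7.1 of the apical membrane, in 33.7% at 126 CPM. Exactly 2 markers were detected in 124 cells, 3 in 69 and 4 in 18, and the pair CLIC6 and PRLR alone accounted for 77 cells. These values chose the cells and are given as a description. In control replicate 2 the rule cells held 1592 CPM of CLIC6, 398 CPM of PRLR, 351 CPM of KL and 234 CPM of KCNJ13. Among all other barcodes of sevoflurane replicate 1, CLIC6 stood at 52.6 CPM and PRLR at 11.3 CPM.

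The exclusion genes removed many cells of the same appearance. A list of 24 choroid epithelium genes outside the rule, of which 22 were matched, was summed in each barcode. Rule cells of sevoflurane replicate 1 had a median of 309 UMIs of this list per 10000 (lowest 96.0, highest 507), against 9.49 in the other barcodes of the library. The 167 barcodes removed by an exclusion gene had a median of 309.5. Of these, 137 held SLC17A7, 37 MOG and 11 GAD2, and 114 held exactly 1 UMI of the 3 genes together. SLC17A7 was also spread over non-neuronal cells of that library, at 89.2 CPM in ependymal-like cells with no choroid marker. Doublet scoring marked 11.98% of the removed barcodes and 3.32% of the rule cells. A further 67 barcodes with 1 marker that met the limits on sum and rate and held no exclusion gene had a median of 300.7.

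Few barcodes lay just outside the limits on the marker sum and rate, and they held less of the choroid list. This did not hold for the 167 and 67 barcodes above, which missed only the exclusion limit or the limit of 2 markers. The 26 rule cells with a marker sum of 3 had a median of 283.7 choroid list UMIs per 10000 and 269.9 over their summed UMIs. The 6 barcodes that missed the rule only by a sum of 2 had a median of 215.8 and 145.2 over their summed UMIs. The 1 rule cell with 6 to 8 marker UMIs per 10000 had 258.7, and the 2 barcodes at 4 to 6 had a median of 179.7 and 160.5 over their summed UMIs.

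**Figure D2:**
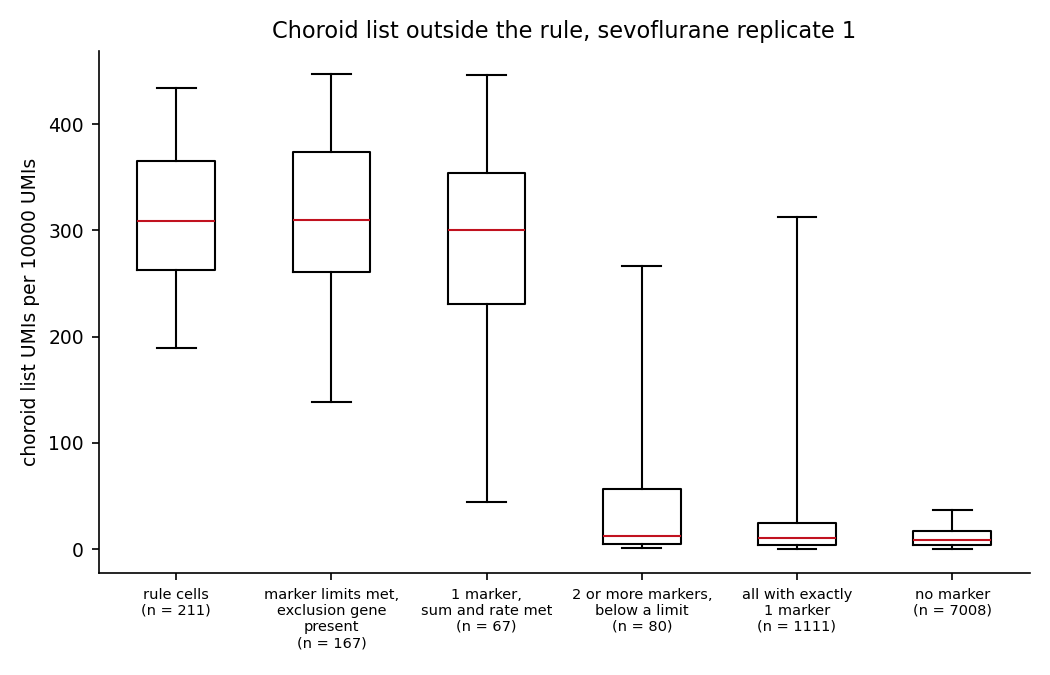
UMIs of the choroid list outside the rule per 10000 UMIs (vertical axis) for groups of barcodes in sevoflurane replicate 1. Boxes span the quartiles, red lines are medians and whiskers reach the 5th and 95th percentiles. The 3 groups on the left have medians of 309, 309.5 and 300.7, and barcodes with no marker have 9.12.

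Clustering of sevoflurane replicate 1 without the genes of the rule placed 204 of its 211 rule cells (96.7%) in 1 of 23 clusters. That cluster held 525 cells, 6.12% of the library, of which 153 had been removed by an exclusion gene, 147 had 1 marker and 10 had none. Its cells outside the rule had a median of 302 choroid list UMIs per 10000, and barcodes outside the cluster had 9.04. Of the 7 rule cells outside the cluster the median was 166.3. Rule cells held a median of 3056 UMIs (1229 to 9080) and 1850 genes, against 3336 UMIs and 1828 genes in the other barcodes.

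The label was checked in the other libraries. The 11 rule cells of control replicate 2 had a median of 301.9 choroid list UMIs per 10000, and the 2 of sevoflurane replicate 2 had 414. The single rule cell of control replicate 1 went against the label, with 6.49 choroid list UMIs per 10000, 0 UMIs of HTR2C and of TTR, and 317.8 UMIs per 10000 of a list of motile cilia genes. The values below are from sevoflurane replicate 1 unless another library is named.

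Rule cells were compared with all other barcodes of their library over 7377 genes outside the rule for which the mean of the 2 levels was at least 20 CPM. With 1 library there is no test, and a gene counts as higher or lower at a 4-fold ratio. By this measure 561 genes were higher (7.6% of those tested) and 629 lower (8.53%), and the median log2 ratio was 0.28. A gene that is low in the other barcodes can pass this limit through the rule cells alone, and 877 genes did so. Each count of list genes is therefore given as a description, followed by the count among genes with at least 20 CPM in the other barcodes. Over all 6868 such genes, 214 were at least 4-fold higher (3.12%) and 794 lower (11.6%), with a median log2 ratio of 0.10. This second limit was chosen after the values were seen. The other barcodes include the cluster cells outside the rule, which lowers every ratio of a choroid gene. Against barcodes with no choroid marker UMI the number higher was 590. Of the 561 genes, 293 had at least 5 UMIs in the rule cells of control replicate 2, and 251 of these were at least 4-fold higher there too against that library's other barcodes. In sevoflurane replicate 2 this held for 66 of 67. The limit of 5 UMIs was set on the rule cells themselves, and equals 117 CPM in control replicate 2 and 714 CPM in sevoflurane replicate 2. Passing it favours a high ratio, and the share over all genes with 5 UMIs is not given. Both counts are therefore a description only.

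**Figure D3:**
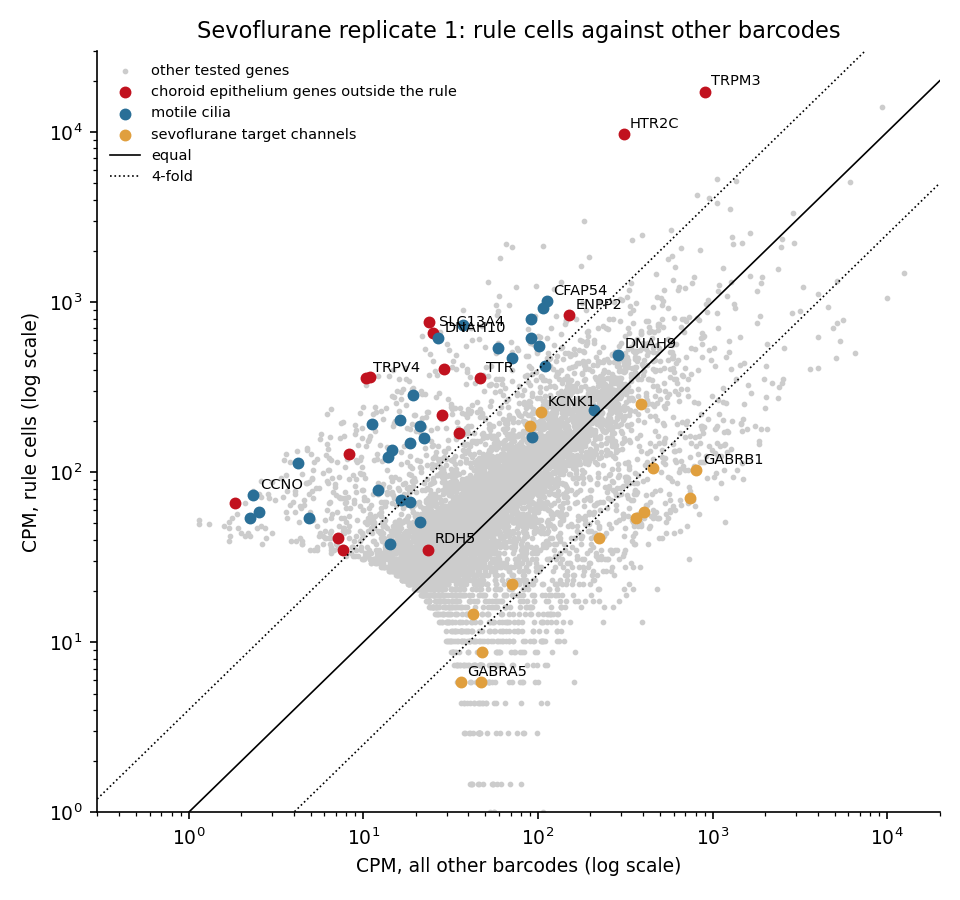
Level of each tested gene in all other barcodes (horizontal axis, CPM, log scale) and in rule cells (vertical axis, CPM, log scale) of sevoflurane replicate 1. Genes at 0 in rule cells are drawn at 1, the solid line marks equal levels and dotted lines 4-fold differences. Choroid list genes in red, such as HTR2C at 9752 against 309.9, and cilia genes in blue lie above the diagonal, and 12 of 14 sevoflurane target channels in orange lie below it.

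Most genes known from choroid epithelium that were detected well enough to compare were high. Of 22 matched list genes 16 passed the limit on the mean, 6 of them through the rule cells alone, and 15 of the 16 were at least 4-fold higher in rule cells with a median log2 ratio of 3.88, beside 7.6% of all tested genes. Of the 10 with at least 20 CPM in the other barcodes 9 were higher, beside 3.12% of all such genes, with a median of 3.38. The 6 genes below the limit on the mean were low in both sets; among them SLC31A1 stood at 1.91 and COL9A3 at 3.01 times the other barcodes. HTR2C, the serotonin 2C receptor, was found in every one of the 211 cells at 9752 CPM (exact Poisson 95% interval 9520 to 9989), 31.5 times the 309.9 CPM of the other barcodes. Per cell it ranged from 10.5 to 249 UMIs per 10000 with a median of 91.7. In the rule cells of the other libraries HTR2C stood at 8894 CPM in control replicate 2, at 14141 CPM in sevoflurane replicate 2 and at 0 in the 1 cell of control replicate 1. With each cell thinned to 1000 UMIs, 99.1% of rule cells and 5.32% of neuron-like cells had an HTR2C UMI (100% and 22.6% before thinning, at median depths of 3056 and 6796 UMIs).

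TRPM3, a calcium-permeable cation channel, stood at 17260 CPM, 19.0 times the level of the other barcodes. F5, coagulation factor V, stood at 761.5 CPM and was 31.9 times higher, and TRPV4, an osmosensitive cation channel of the apical membrane, stood at 358 CPM and was 34.3 times higher. TMEM72 was 35.7, LMX1A 33.0, SLC13A4 26.5 and CALML4 15.5 times higher. SLC13A4 stood at 662 CPM in rule cells and near that, at 647 CPM, in the 20 fibroblast-like cells of the library. At the low end of the list stood KCNE2, a potassium channel subunit, at 4.83-fold, COL8A1 at 4.55-fold and RDH5, a retinol dehydrogenase, at 1.49-fold. WFDC2 was at 0, which allows up to 4.39 CPM, and it was also at 0 in the other barcodes. The same limit applies to each gene at 0 in these rule cells below. Such a zero shows a lower level only where the other barcodes stood above that limit.

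TTR, the carrier of thyroxine and retinol that is a classical marker of this epithelium, was detected in fewer cells than HTR2C. It stood at 358 CPM (interval 315 to 406) and was 7.68 times higher. It was found in 48.3% of rule cells, its median per cell was 0, and the 21 cells with the highest values held 52.7% of its UMIs. Rule cells of control replicate 2 had 164 CPM of TTR from 7 UMIs and those of sevoflurane replicate 2 had 571 CPM from 4 UMIs. TTR was also present in the other cells of sevoflurane replicate 1, at 46.6 CPM over all other barcodes, where the other libraries with rule cells had 0.918 to 1.42 CPM. Thinned to 1000 UMIs, 27.0% of rule cells (interval 21.2% to 33.5%), 7.35% of astrocyte-like cells (5.18% to 10.1%) and 3.22% of neuron-like cells (2.64% to 3.90%) had a TTR UMI. In the 5 other libraries the share of neuron-like cells was 0.0489% to 0.143%. The TTR share of rule cells lay above those of astrocyte-like and neuron-like cells. In ependymal-like cells it was 18.7% (14.0% to 24.2%), and that interval overlapped the one of rule cells. Of these 243 ependymal-like cells, 170 lay in the cluster that held most rule cells. In CPM the interval of fibroblast-like cells (140 to 449) overlapped that of rule cells too. The part of TTR from free RNA was not tested.

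Genes of ion and water transport, which drive secretion of cerebrospinal fluid, split into high and level members. Of 22 measured, 11 were at least 4-fold higher and 1 at least 4-fold lower, with a median log2 ratio of 2.03. Over all tested genes the shares were 7.6% and 8.53%. Of the 18 list genes with at least 20 CPM in the other barcodes 8 were higher and 1 lower, with a median of 1.22. Over all such genes the shares were 3.12% and 11.6%. TRPV4, TRPM3, SLC4A5 and KCNE2 are also on the choroid list. SLC4A2, the basolateral chloride and bicarbonate exchanger AE2, stood at 238 CPM and was 17.6 times higher. SLC4A5, an apical sodium bicarbonate cotransporter, was 14.0 times higher, and SLC12A4, a potassium chloride cotransporter, 10.97 times. STK39, the kinase SPAK that phosphorylates cation chloride cotransporters, stood at 1849 CPM and was 9.38 times higher. Its substrate SLC12A2, the cotransporter NKCC1, stood at 519 CPM and was 5.24 times higher. SLC4A10, the sodium-dependent bicarbonate transporter NCBE, stood at 2637 CPM and was 4.53 times higher.

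Beta subunits of the sodium pump differed from each other. ATP1B3 was 5.83 times higher, while ATP1B1 stood at 551 CPM with a ratio of 1.34. ATP1B3 stood at 118 CPM in rule cells, below the 384 CPM of the 20 fibroblast-like cells of the library. Lowest of the 22 measured were SLC4A7 at 0.460 times the other barcodes, SLC4A4, an astrocyte bicarbonate cotransporter, at 0.300 times and KCNQ1 at 0.144 times. CFTR, WNK4 and KCNA3 were at 0, and in the other barcodes they stood at only 2.97, 1.78 and 0.593 CPM.

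Carriers of hormones, vitamins and metals followed. Of 19 measured, 9 were at least 4-fold higher and 2 at least 4-fold lower, with a median log2 ratio of 1.98. Over all tested genes the shares were 7.6% and 8.53%. Of the 15 list genes with at least 20 CPM in the other barcodes 5 were higher and 2 lower, and the median was 0.24. Over all such genes the shares were 3.12% and 11.6%, so the 13.3% lower among the carriers was near the share of all genes. SLCO1C1, a thyroxine transporter, stood at 2200 CPM in 96.7% of rule cells and was 33.4 times higher. In control replicate 2 its rule cells had 796 CPM and in sevoflurane replicate 2 they had 1143 CPM. SLC22A8, the organic anion transporter OAT3, was 28.5 times higher, SLC28A3, a nucleoside transporter, 27.3 times, and SLC39A12, a zinc importer, 24.1 times. SLC2A12, a glucose transporter, stood at 1080 CPM and was 18.0 times higher. SLC6A20, a proline transporter, was 12.4 times higher and SLC23A2, which carries vitamin C, 5.07 times. SLC6A20 stood at 118 CPM in rule cells, below the 768 CPM of the 20 fibroblast-like cells of the library. LRP8 was low at 0.2003 times and SLC47A1 at 0.297 times; ABCB1, the P-glycoprotein of the blood-brain barrier, was at 0.

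Secreted proteins gave 8 of 16 measured genes at least 4-fold higher and 0 at least 4-fold lower, with a median log2 ratio of 2.0. Over all tested genes the shares were 7.6% and 8.53%. Among the 14 list genes with at least 20 CPM in the other barcodes 5 were higher and 0 lower, and the median was 0.79. Over all such genes the shares were 3.12% and 11.6%. IGFBP7, a binding protein of insulin-like growth factors, stood at 1826 CPM in 97.6% of rule cells and was 29.9 times higher. It stood at 1006 CPM in the rule cells of control replicate 2 and 1714 CPM in those of sevoflurane replicate 2. IGFBP2 was 9.94 times higher, TIMP3, an inhibitor of matrix proteases, 7.85 times, and ENPP2, which makes lysophosphatidic acid, 5.55 times at 838 CPM. IGF2, a growth factor of the cerebrospinal fluid, was 4.64 and BMP7 4.32 times higher. Other classes of the library stood above the rule cells for some of these genes. ENPP2 was at 1341 CPM in oligodendrocyte-like cells, and BMP7 at 196 CPM in astrocyte-like cells against 171 CPM in rule cells. In the 20 fibroblast-like cells TIMP3 stood at 445 CPM and IGF2 at 263 CPM, against 250 and 58.5 CPM in rule cells. SCG5 at 1.09 times, BMP6 at 0.553 times and CRIM1 at 0.490 times were the lowest of the 16 measured. WNT5A and A2M were at 0, and in the other barcodes they stood at only 1.72 and 0.530 CPM.

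Genes of tight junctions, cell polarity and epithelia were high or level. Of 17 measured, 9 were at least 4-fold higher and 0 at least 4-fold lower, with a median log2 ratio of 2.06. Over all tested genes the shares were 7.6% and 8.53%. With at least 20 CPM in the other barcodes, 3 of 12 list genes were higher and 0 lower, and the median was 0.80. Over all such genes the shares were 3.12% and 11.6%. CDH3, P-cadherin, was 27.8 times higher, CRB2, an apical polarity protein, 24.2 times, EZR, ezrin of the microvilli, 23.6 times, and CGNL1, paracingulin, 23.5 times. CGNL1 stood at 409 CPM in rule cells and higher, at 589 CPM, in endothelial-like cells of the library. CLDN1 was 9.69 and CLDN2, a cation pore of leaky epithelia, 5.68 times higher, from 41 and 28 UMIs. CDH2, N-cadherin, was at 0.658 times, MAGI3 at 0.706 times and PARD3 at 0.929 times the level of the other barcodes. EPCAM, CRB3, ESRP1 and CLDN12 were at 0, and in the other barcodes they stood at only 0.106, 0.445, 0.339 and 0.233 CPM.

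Transcription factors of the developing choroid plexus and roof plate were partly high. Of 13 measured, 5 were at least 4-fold higher and 1 at least 4-fold lower, with a median log2 ratio of 1.58. Over all tested genes the shares were 7.6% and 8.53%. With at least 20 CPM in the other barcodes, 1 of 10 list genes was higher and 2 lower, and the median turned to -0.44. Over all such genes the shares were 3.12% and 11.6%. LMX1A, a factor that specifies the roof plate, stood at 361 CPM and was 33.0 times higher, ZIC4 was 26.6, MSX1 14.4 and ZIC1 10.3 times higher. RORA was 4.92 times higher at 5255 CPM. NFIB stood at 0.257 times and MEIS2 at 0.242 times the level of the other barcodes. The hindbrain genes HOXA2, HOXA3, HOXB3 and HOXD3 were at 0, as were LMX1B, MSX2 and OTX1, each allowing up to 4.39 CPM. In the other barcodes LMX1B, MSX2 and OTX1 stood below that limit, at 1.06, 0.0212 and 0.0424 CPM.

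**Figure D4:**
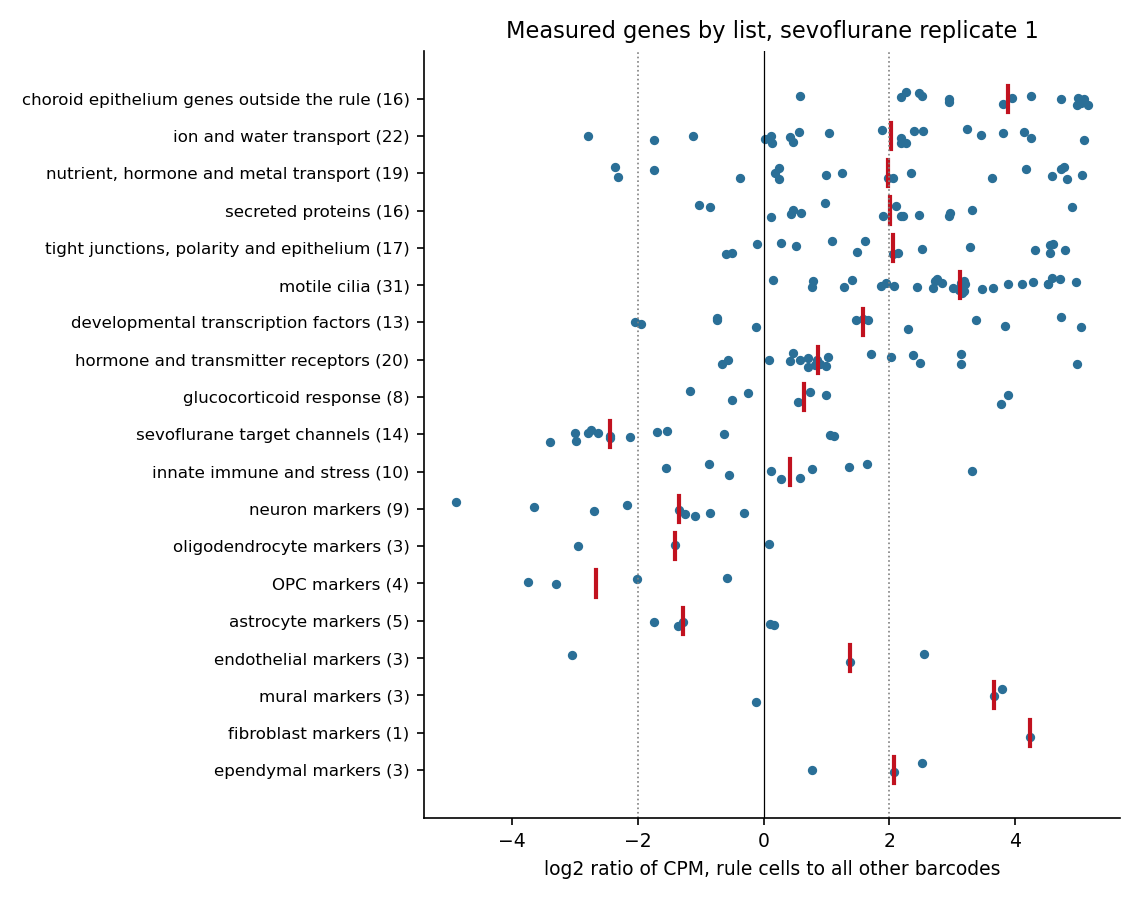
Log2 ratio of CPM in rule cells to all other barcodes of sevoflurane replicate 1 (horizontal axis) for each measured gene (points) of each list (vertical axis, number measured in parentheses). Red bars are medians and dotted lines mark 4-fold. The medians are 3.88 for choroid epithelium, 3.12 for motile cilia and -2.45 for sevoflurane target channels, beside 0.28 over all tested genes.

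Beyond the lists, the highest ratios were ranked among named genes with at least 50 UMIs in rule cells and a UMI in at least 20% of them. This leaves out TMEM72 and CCNO, each found in 19.0% of rule cells. The 25 highest by this rule were ABCA4, FAM160A1, CCDC68, TRPV4, SLC5A5, SLCO1C1, LMX1A, F5, SLCO1B3, HTR2C, FAM81B, IGFBP7, SNTB1, BARD1, ST6GALNAC2, A2ML1, SLC22A8, CDH3, SLC28A3, PIK3AP1, ZIC4, SLC13A4, DNAI2, CFAP77 and E2F7. ABCA4, a retinoid flippase best known from photoreceptors, stood at 219 CPM in rule cells and 6.23 CPM in the other barcodes. SLC5A5, the sodium iodide symporter of the thyroid, stood at 118 CPM against 3.54 CPM, and SLCO1B3, an organic anion transporter best known from liver, at 327 CPM against 10.4 CPM. SNTB1, a syntrophin of the dystrophin complex, stood at 2100 CPM against 71.5 CPM. Rule cells of control replicate 2 had UMIs of all 25 genes and were at least 4-fold higher for 24, with DNAI2, from 1 UMI, as the exception. Those of sevoflurane replicate 2 had UMIs of 20 of the 25, each at least 4-fold higher. There 1 UMI in rule cells is 142.8 CPM, and the highest of the 25 in the other barcodes, HTR2C, stood at 25.9 CPM. A single UMI was thus enough for a 4-fold call there. The same held for most of the 25 in control replicate 2, where 1 UMI is 23.4 CPM. These counts are therefore a description only.

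Among named genes with at least 200 CPM in the other barcodes, the 10 lowest ratios were those of CELF4, PLXNA4, DSCAML1, DLGAP2, SH3RF3, CACNG3, NFASC, ELMO1, GALNT17 and CCBE1. CELF4, a neuronal RNA-binding protein, stood at 13.2 CPM in rule cells against 392 CPM, and DLGAP2, a postsynaptic scaffold, at 51.2 CPM against 1172 CPM. NFASC, an adhesion protein of the axon initial segment and nodes, stood at 16.1 CPM against 268 CPM.

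Genes of motile cilia were high against the sum of all other barcodes. Of 31 measured genes 24 were at least 4-fold higher, beside 7.6% of all tested genes, and 0 lower, with a median log2 ratio of 3.12. Of the 16 with at least 20 CPM in the other barcodes 11 were higher, beside 3.12% of all such genes, and 0 lower, with a median of 2.79. The highest of the 31 were CCNO at 31.1 times, DNAI2 at 26.4, GMNC at 24.1, TP73 at 23.0, DNAH10 at 22.9 and ARMC3 at 19.6 times. CFAP61, DNAH9 and RFX3 were the lowest of the 31, at 1.73, 1.71 and 1.10 times. FOXJ1, the master regulator of motile cilia, was at 0, and it was also at 0 or 1 UMI in the ependymal-like cells of every library.

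Ependymal-like barcodes were defined by DNAH9, CFAP43, DNAH11 and CFAP54, with SPAG17 not matched. In sevoflurane replicate 1 this class went against its name: 170 of its 243 cells lay in the choroid cluster, with 319.6 choroid list UMIs per 10000 over all of them. The comparison was therefore restricted, after these values were seen, to its 50 cells outside the cluster with no choroid marker, which held 8.92 choroid list UMIs per 10000. Staying outside the cluster and without a marker fixes low levels of choroid genes in these cells, those outside the rule included, so the choroid genes were not compared with them. The cells of this class were chosen on 4 cilia genes, which are left out of the sums and medians below, and levels of the other cilia genes are given as a description.

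Against these 50 cells the 28 other measured cilia genes had a median log2 ratio of 0.02, with 1 at least 4-fold higher, CCNO, and 1 at least 4-fold lower, RSPH1. Summed, the cilia list without the class genes made up 75.6 UMIs per 10000 in rule cells and 78.6 in the 50 cells. Rule cells of control replicate 2 had 86.6, those of sevoflurane replicate 2 had 81.4 and the 1 of control replicate 1 had 227. The ependymal-like cells of the other libraries had 152.5 (control replicate 1), 233 (control replicate 2), 199 (control replicate 3), 59.0 (sevoflurane replicate 2) and 169 (sevoflurane replicate 3). The rule cells thus stood near the 50 cells of their own library, above the ependymal-like cells of sevoflurane replicate 2 and, except the 1 of control replicate 1, below those of the other 4 libraries.

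Single cilia genes differed in both directions. RSPH1, a radial spoke protein, stood at 17.5 CPM in rule cells and 99.6 CPM in the 50 ependymal-like cells, and between 89.1 and 344 CPM in ependymal-like cells of the other 5 libraries. DNAH6, an inner arm dynein, stood at 422 against 1154 CPM, and AK7, an adenylate kinase of cilia, at 78.9 against 257 CPM. TMEM212, an ependymal marker, stood at 4.39 CPM from 3 UMIs against 68.2 CPM from 13 UMIs, and at 112 to 467 CPM in the other libraries. CCNO, a cyclin that drives the multiplication of centrioles, went the other way. It stood at 73.1 CPM in rule cells from 50 UMIs (interval 54.2 to 96.3), at 93.6 CPM in those of control replicate 2 and at 143 CPM in those of sevoflurane replicate 2. It was at 0 in the 50 ependymal-like cells, which allows up to 15.7 CPM, and at 0 to 1.64 CPM in ependymal-like cells of the other libraries. TEKT1 stood at 186 against 68.2 CPM, but its level in ependymal-like cells of the other libraries ranged from 69.0 to 283 CPM and spanned that of the rule cells.

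The choroid list was compared with ependymal-like cells of the other 5 libraries, which were not chosen by the cluster. They held 3.94 to 15.6 choroid list UMIs per 10000, where rule cells held 315 in sevoflurane replicate 1, 257 in control replicate 2 and 424 in sevoflurane replicate 2, and the 1 of control replicate 1 held 6.49. HTR2C was present in some of these ependymal-like cells. It stood at 403 CPM in control replicate 2, from 245 UMIs in 18 of 217 cells. In control replicate 3 it stood at 82.4 CPM, from 67 UMIs in 3 of 293 cells. Whether choroid cells that missed the rule were among the ependymal-like cells of these libraries was not tested.

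**Figure D5:**
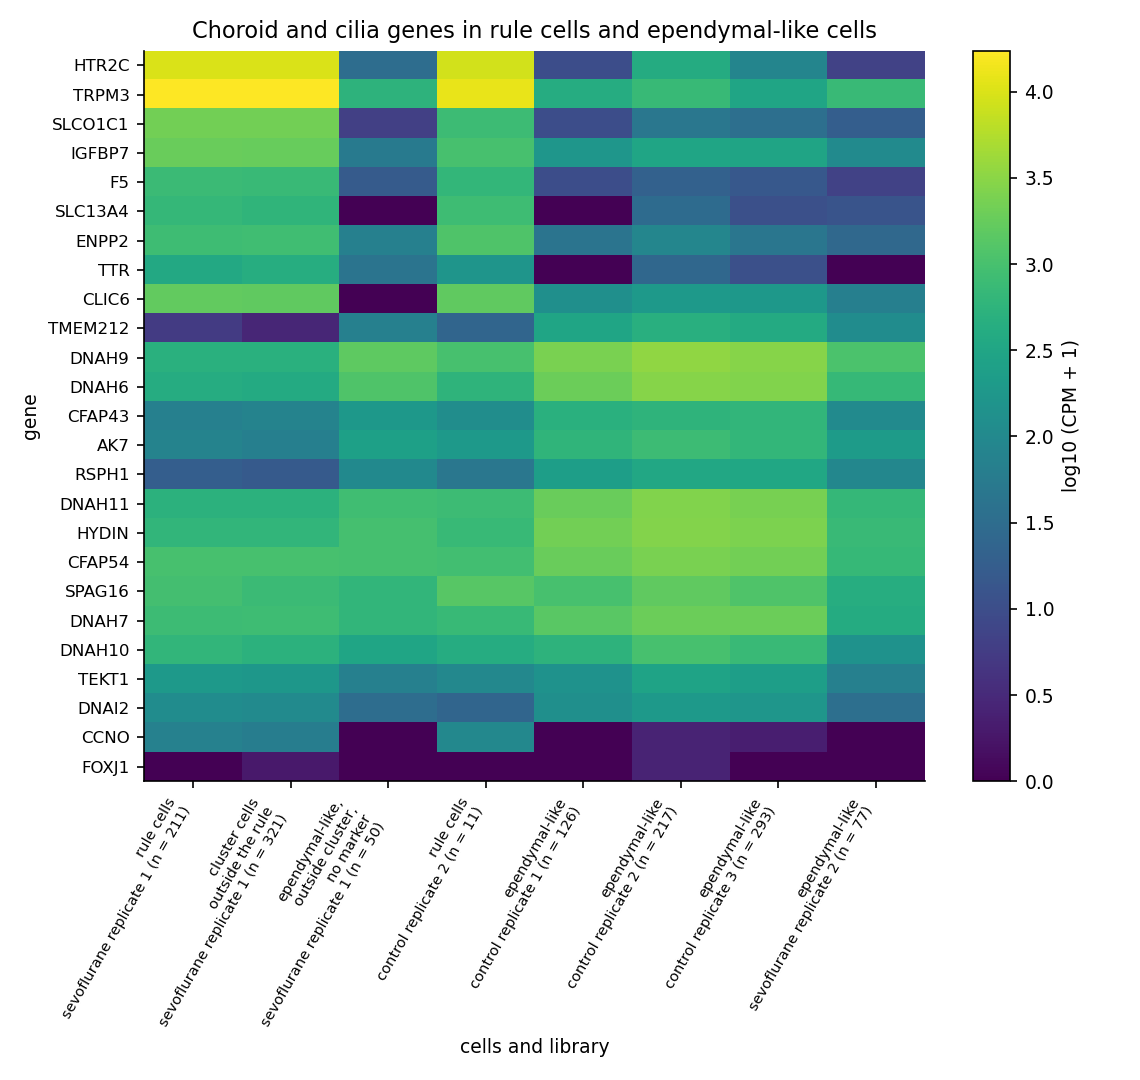
Level of 25 genes (rows) in rule cells, other cells of the choroid cluster and ependymal-like cells (columns, with library and number of cells), as log10 of CPM plus 1 in colour. Genes from HTR2C to ENPP2 are brighter in the 3 columns of rule cells and cluster cells than in the ependymal-like columns. TRPM3 still stood at 540 CPM in the 50 ependymal-like cells of sevoflurane replicate 1. Most cilia genes from DNAH9 to DNAI2 are present in every column. CLIC6 was used to choose cells, and DNAH9, CFAP43, DNAH11 and CFAP54 define the ependymal-like columns. The 50 cells of sevoflurane replicate 1 were also chosen to lie outside the choroid cluster, which fixes low levels of choroid genes in them.

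FKBP5, a co-chaperone of the glucocorticoid receptor that the series title names in microglia, was low in the rule cells of the sevoflurane library. It stood at 40.9 CPM (interval 27.2 to 59.2) from 28 UMIs in 25 of 211 cells, and at 51.3 CPM (38.6 to 66.7) in the cluster cells outside the rule. In the same library it stood at 1743 CPM in microglia-like cells (1623 to 1871), 465 in fibroblast-like, 278 in endothelial-like, 48.7 in neuron-like (46.2 to 51.4), 88.9 in oligodendrocyte-like and 147 in astrocyte-like cells. The 243 ependymal-like cells of the library had 46.1 CPM, within the interval of rule cells, and 170 of them lay in the choroid cluster. The 50 outside the cluster with no choroid marker had 68.2 CPM from 13 UMIs. The intervals of FKBP5 in rule cells and neuron-like cells overlapped, and those of rule cells and microglia-like cells did not. The low level was thus not particular to the rule cells. The 11 rule cells of control replicate 2 held 3 FKBP5 UMIs, all in 1 cell, or 70.2 CPM (14.5 to 205), and the rule cells of control replicate 1 and sevoflurane replicate 2 held 0 in 1542 and 7001 UMIs. FKBP5 was not compared between the treated and control rule cells.

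The receptors of the same hormones were present. NR3C1, the glucocorticoid receptor, stood at 241 CPM with a ratio of 1.85 to the other barcodes, and NR3C2, the mineralocorticoid receptor, at 476 CPM with a ratio of 0.674. Of 8 measured genes of the glucocorticoid response 2 were at least 4-fold higher, beside 7.6% of all tested genes, with a median log2 ratio of 0.64 beside 0.28 over all tested genes. Both passed through the rule cells alone: of the 7 with at least 20 CPM in the other barcodes 0 were higher and 0 lower, and the median turned to -0.50. PDK4, a kinase that restrains glucose oxidation, stood at 70.2 CPM and was 13.6 times higher, and CDKN1A, a cell cycle inhibitor, stood at 40.9 CPM and was 14.8 times higher. PDK4 also stood at 70.2 CPM in rule cells of control replicate 2, from 3 UMIs, and CDKN1A was at 0 there, which allows up to 70.2 CPM. SGK1 at 0.842, ZBTB16 at 0.707 and FKBP5 at 0.444 times were the lowest of the 8 measured, and CEBPD, CEBPB and MT2A were at 0.

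Among 20 measured hormone and transmitter receptors 6 were at least 4-fold higher and 0 at least 4-fold lower, with a median log2 ratio of 0.87. Over all tested genes the shares were 7.6% and 8.53%. With at least 20 CPM in the other barcodes, 4 of 18 receptors were higher and 1 lower, and the median was 0.77. Over all such genes the shares were 3.12% and 11.6%. Besides HTR2C the 6 higher receptors were NPR3, a clearance receptor of natriuretic peptides, at 8.83 times, and LEPR, the leptin receptor, at 8.76 times. The others were IGF2R at 5.63, FGFR1 at 5.20 and TGFBR2 at 4.09 times. LEPR stood at 175 CPM in 37.9% of cells. GHR at 1.05, NR3C2 at 0.674 and THRA at 0.632 times were the lowest of the 20 measured. The 1 lower receptor of the second count did not pass the limit on the mean and is not among these 20. AGTR1, AVPR1A, VDR, OXTR, GLP1R, MC3R, MTNR1A, PGR, ADRA2A and ADRB1 were at 0.

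Most known channel targets of sevoflurane were low. Of 14 measured, 0 were at least 4-fold higher and 9 at least 4-fold lower, beside 8.53% of all tested genes, with a median log2 ratio of -2.45. Of the 16 with at least 20 CPM in the other barcodes 11 were lower, beside 11.6% of all such genes, and 0 higher. GABRB1, a subunit of the GABA-A receptor, stood at 102 against 809.5 CPM, and KCNK10, the potassium channel TREK-2, at 5.85 against 47.0 CPM. KCNK1, the potassium channel TWIK-1, stood at 225 CPM with a ratio of 2.16, and GABRA3 at 186 CPM against 89.9 CPM. KCNK2, KCNK3, KCNK9, KCNK18 and HCN2 were at 0.

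Immune and stress genes gave 1 of 10 measured at least 4-fold higher, a share near the 7.6% of all tested genes, and 0 of the 8 with at least 20 CPM in the other barcodes. IL1R1, the interleukin-1 receptor, stood at 90.6 CPM and was 9.99 times higher. HSPH1 was 3.13 times higher, NFKB1 stood at 0.679, CFI at 0.549 and IL6R at 0.339 times. TLR4, NLRP3, ICAM1, VCAM1, C3, LBP, TNFRSF1A, GPX3 and HMOX1 were at 0.

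Markers of other cell types were mostly low in rule cells. Over all tested genes 7.6% were at least 4-fold higher and 8.53% lower. Neuron markers summed to 722 CPM against 2468 CPM in the other barcodes, with 0 of 9 measured at least 4-fold higher and 4 lower. STMN2 stood at 168 CPM and SNAP25 at 256 CPM. Astrocyte markers summed to 481 against 1072 CPM with 0 of 5 higher, oligodendrocyte markers to 406 against 920.5 CPM with 0 of 3 higher, and OPC markers, of oligodendrocyte precursors, to 71.6 against 441 CPM with 0 of 4 higher and OLIG1, OLIG2 and SOX10 at 0. Of 11 microglia and macrophage markers 0 reached the limit of 20 CPM, and P2RY12, CX3CR1, CD163, MRC1, LYVE1 and C1QB were at 0. With at least 20 CPM in the other barcodes, 0 of 9 neuron, 0 of 5 astrocyte, 0 of 5 oligodendrocyte and 0 of 4 OPC markers were higher. At least 4-fold lower were 4, 0, 2 and 3 of them, beside 11.6% of all such genes. Because rule cells had to hold 0 UMIs of MOG, GAD2 and SLC17A7, low neuron and oligodendrocyte markers are partly set by the choice of cells. The same limit applies to neuronal genes among the lowest ratios above. Without the exclusion genes, 504 genes were at least 4-fold lower in place of 629. The part of free RNA in the neuron and glia markers was not tested.

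Some vascular and stromal markers had high ratios without the defining genes of those types, but they passed the limit on the mean through the rule cells. This was so for 2 endothelial, 2 mural, 1 fibroblast and 2 ependymal markers. With at least 20 CPM in the other barcodes, 0 of 1 endothelial, 0 of 2 mural, 0 of 1 fibroblast and 0 of 1 ependymal markers were higher. Of these, 1 endothelial and 1 fibroblast marker were at least 4-fold lower. The ratios that follow are a description. Of 3 measured endothelial markers, KDR was 5.84 and PECAM1 2.59 times higher, and FLT1 stood at 4.39 CPM from 3 UMIs; VWF, CDH5, TEK, PLVAP and ESM1 were at 0. Of 3 mural markers, PDGFRB was 13.9 and ABCC9 12.6 times higher and MYH11 stood at 0.914 times, with NOTCH3 at 0. FBLN1, on the fibroblast list, stood at 345 CPM in 62.1% of rule cells and was 18.8 times higher, while COL1A1, COL1A2 and COL3A1 were at 0. Of the ependymal markers CAPS was 5.70 times higher and CCDC153 and FAM216B were at 0.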

How the data were processed

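The authors deposited raw UMI counts per gene and barcode as whole numbers with no normalisation. Per the labels' protocols, libraries used 10x Genomics 3' chemistry; base calls used CASAVA 1.8, counting Cell Ranger and clustering Seurat, per the submitters' processing notes, and the file headers give Cell Ranger 6.1.1. The build and annotation release were not given in the sources used here. Symbols came with 15188 of 29320 genes and were added for 1363 by gene identifier, which left 12769 unnamed, 60 of them among the genes called higher. 3' counts carry no gene length, so levels were compared within genes.

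The members, the gene lists and the class markers were chosen with earlier results of these data known. Counts of a set of cells were summed and scaled to CPM. Ratios were taken for genes with a mean of both levels of at least 20 CPM, and a set at 0 was given the floor of 3 counts over the set. Classes ("-like") were barcodes with at least 2 of 5 markers, a sum of at least 3 and 6 per 10000 that met the limits of no other class; they do not cover all barcodes. Doublets were scored with scrublet in scanpy 1.11.5, with the median of 6 automatic thresholds applied to every library, and kept in the main values. Leiden clustering (igraph 0.11.9, resolution 1) took 2000 variable genes, 30 principal components and 15 neighbours. Python 3.11.15, numpy 2.4.6 and scipy 1.17.1 were used, and the ratio calls were tested on simulated data. No test between groups was made. Some named items are not reported here. Named genes were those of the rule, up to 8 highest and 3 lowest of each list with markers at 0, the 25 highest ratios (at least 50 UMIs in rule cells and a UMI in 20% of them) and 10 lowest (at least 200 CPM in the other barcodes), and FKBP5; TMEM212, RSPH1, DNAH6, AK7, TEKT1, SLC4A10, ATP1B1, NR3C1, SLC31A1, COL9A3, SLC2A1 and PLVAP were named after their values were seen. Intervals are exact at 95%. Alternatives are given in the closing section. The list genes AQP1, ECRG4, SLC12A7, SLC5A3, KRT8, KRT18, KRT19, PALS1, DNAH3, SPAG17, CFAP46, CFAP47, MEG3, MOBP, RGS5, SULT1A1, TLR2 and IFITM3 were not matched and not used here.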

Additional observations from a re-analysis of the deposited data

How the results depend on the processing

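Of the 87 recomputed values, 65 kept their direction and stayed within 1.5 times a count or median ratio, or within the interval of a share or level; FKBP5 did so in all 8 of its alternatives (37.6 to 46.8 CPM, and 47.05 CPM with the cluster). The number of rule cells was 95 with at least 3 markers, 405 without exclusion genes and 525 with the cluster in place of the rule, an alternative chosen after seeing the data. Leaving out each library in turn gave 14 to 225 cells and 78.6% to 98.6% in the leading library; without sevoflurane replicate 1, which decides both, 14 cells remained, 78.6% of them in control replicate 2. Genes at least 4-fold higher and lower numbered 0 and 76 against all ependymal-like cells of the library, 170 of whose 243 cells lie in the choroid cluster, 1196 and 1077 with no filter, and 1435 and 1136 at 2-fold; 343 were higher with at least 50 CPM, where fewer genes are tested, and 214 with the 20 CPM limit set on the other barcodes alone, chosen after seeing the data, under which the median of ion and water transport genes was 1.22. Against ependymal-like cells the medians were 0.46 for choroid, 0.41 for ion and water transport and -0.24 for cilia genes (-0.07 for cilia outside the cluster, 0.02 without the class genes). The cilia median was 4.20 against astrocyte-like cells. Averaging CPM over cells gave 3.20 for choroid and 1.25 for ion and water transport; the cause was not tested. No paired analysis was possible because no result comes from a test between groups. Precision is limited by 1 library: 684134 UMIs of rule cells, 42724 in control replicate 2.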

Other observations

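The choroid plexus capillary differs from the blood-brain barrier by its fenestrations, whose diaphragms are built by PLVAP. PLVAP was found in endothelial-like cells of sevoflurane replicate 1, the library with 93.8% of the rule cells, with 16 UMIs in 7 of 45 cells (15.6%, exact 95% interval 6.49% to 29.5%), or 131 CPM (74.8 to 212.5). In endothelial-like cells of the other libraries PLVAP had 0 UMIs in 68, 67 and 90 cells of control replicates 1 to 3 and in 21 and 61 cells of sevoflurane replicates 2 and 3, which allows up to 11.1 to 41.2 CPM. The 7 cells were picked by PLVAP, so what follows is a description of them. They held 1 UMI of SLC2A1, the glucose transporter of barrier endothelium, or 64.7 CPM (1.64 to 361), and the 38 other endothelial-like cells of the library held 48 UMIs, or 449 CPM (331 to 596), so the intervals overlapped. KDR stood at 453 CPM (182 to 933) from 7 UMIs against 84.3 CPM (38.5 to 160) from 9 UMIs. FLT1 stood at 1683 against 1994 CPM and ABCB1 at 518 against 590 CPM, also with overlapping intervals, and HTR2C was at 0 in the 7 cells. PLVAP was at 0 in the rule cells.

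TTR was found in every class of sevoflurane replicate 1. It stood at 347 CPM in ependymal-like, 263 in fibroblast-like, 135 in microglia-like, 131 in endothelial-like, 120 in oligodendrocyte-like, 76.9 in astrocyte-like and 24.3 in neuron-like cells. Rule cells had 358 CPM and the cluster cells outside the rule 435. Of the 243 ependymal-like cells 170 lay in the choroid cluster. The 50 outside it with no choroid marker had 42.0 CPM of TTR from 8 UMIs. In the other 5 libraries TTR stood at 0 in endothelial-like and fibroblast-like cells and at 0.313 to 0.903 CPM in neuron-like cells. The zeros allow up to 11.1 to 41.2 CPM in endothelial-like cells and up to 31.95 to 1875 CPM in fibroblast-like cells. The highest of these limits is from the 1 fibroblast-like cell of sevoflurane replicate 2, whose zero does not show a level below 263 CPM.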
